A study of Mus musculus with 6 samples.

Results

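The mitochondrial carriers of the Slc25 family were examined in hearts of mice with and without the melanocortin 4 receptor gene, Mc4r. Members were the protein-coding genes of the deposited table whose symbol begins with Slc25a, together with Ucp1, Ucp2 and Ucp3, and 50 genes of 54532 met this rule. RNA sequencing had been performed on 3 WT mice and 3 Mc4r KO mice of 12 weeks, with 1 library per mouse. All 6 were male mice of a C57B/6/N line and were fed standard chow. Matings of heterozygous parents gave the knockouts and WT littermate controls, and which of the 6 shared a litter is not given. The knockout was homozygous and present in the whole body, so the heart was not its only site. The labels give the tissue as heart in one field and as muscle in the titles.

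Slc25 carriers are proteins of the inner mitochondrial membrane that are encoded in the nucleus and exchange or carry small solutes between the matrix and the space outside it. They bring ADP and phosphate to the ATP synthase, release ATP to the cytosol, and move carnitine esters, carboxylates, amino acids, cofactors and iron. In heart muscle, which makes nearly all of its ATP in mitochondria, the ADP/ATP carrier is among the most abundant proteins of the inner membrane. Uncoupling proteins are relatives that can dissipate the proton gradient or carry other anions.

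Between 14691076 and 16047003 reads were counted on genes per library. The values are FPKM, fragments per kilobase of gene length, scaled between libraries. That scaling was not by depth alone: median-of-ratios factors computed on the deposited values were 1 in all 6 libraries. The 7 cardiomyocyte markers were high in every library. They summed to 12772, 12942 and 12271 FPKM in WT and 14846, 16379 and 15643 FPKM in Mc4r KO, without overlap. Of these 7, 5 had log2 fold changes above 0 and 2 below. Actc1 weighed most in the sum, with 5495, 5470 and 4568 FPKM in WT and 7123, 8307 and 7188 FPKM in Mc4r KO. Those below 0 were Tnni3 and Pln, with log2 fold changes of -0.005 and -0.33. The 9 adipocyte markers were mixed. Lep, Retn and Elovl3 had no reads, and Adipoq, Plin1, Cidec and Cfd were at most 0.128, 0.0449, 0.285 and 0.831 FPKM. Fabp4, which endothelial cells also express, lay between 90.5 and 135 FPKM, and Cidea had 12.1, 14.7 and 15.7 FPKM in WT and 19.3, 27.03 and 26.2 FPKM in Mc4r KO, without overlap (log2 fold change 0.76, limma adjusted p = 0.0791). The part of the cardiomyocyte and adipocyte markers in the carrier levels was not tested. Transcripts of the mitochondrial chromosome took 59.3%, 57.4% and 47.1% of the summed FPKM in WT replicates 1, 2 and 3, and 43.6%, 46.6% and 43.0% in the Mc4r KO replicates. WT replicate 3 stood apart: its 4 atrial markers summed to 747 FPKM against 6.29 to 136 in the other 5 libraries, and its mitochondrial share was nearer to the Mc4r KO libraries. Mc4r itself was not used as a check of genotype, because it had almost no reads in either group. In bulk tissue, fewer cells of a type and less RNA per cell cannot be told apart.

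Carrier levels spanned more than 4 orders of magnitude. Of the 50 members, 4 had a mean of at least 100 FPKM, 11 lay between 10 and 100, 24 between 1 and 10, 5 between 0.1 and 1, and 6 under 0.1. The 10 highest were Slc25a4, Slc25a3, Slc25a11, Slc25a5, Slc25a34, Slc25a20, Slc25a13, Slc25a39, Slc25a12 and Ucp3. Together the family took 0.925%, 1.01% and 1.11% of the FPKM outside the mitochondrial chromosome in WT replicates 1, 2 and 3, and 1.14%, 1.20% and 1.14% in the Mc4r KO replicates. The groups did not overlap, with means of 1.02% ± 0.0946 and 1.16% ± 0.0386 (SD, n = 3 each; exact permutation p = 0.1, two-sided, the smallest that 3 against 3 can give). Slc25a4 alone made up 58.1% of the family sum in WT and 64.0% in Mc4r KO (means). The share of the rest of the family overlapped between groups.

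**Figure D1:**
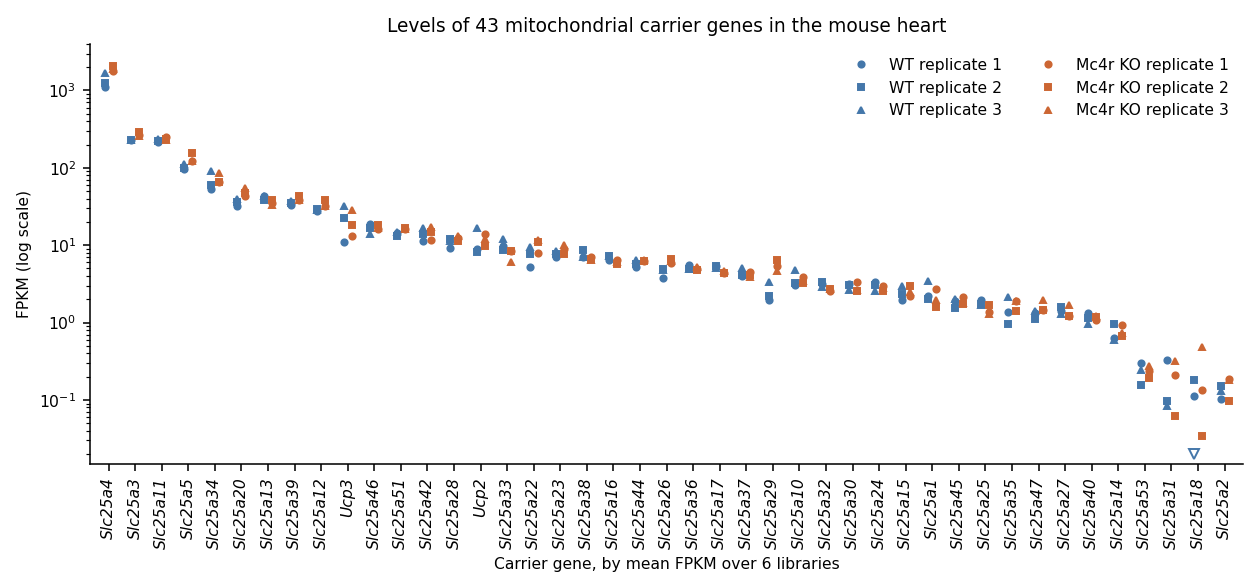
FPKM of 43 tested carrier genes (log y axis) in each of the 6 libraries, ordered by mean FPKM, with WT in blue and Mc4r KO in orange; the open triangle is a library with 0 reads. Slc25a4 lies at 1102 FPKM or above in all 6 libraries, and the next carrier, Slc25a3, between 226 and 292 FPKM.

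The comparison of Mc4r KO with WT was tested with limma on log2(FPKM + 0.1) for the 18035 genes with a mean of at least 0.1 FPKM, which included 44 of the 50 members. A call needed a Benjamini-Hochberg adjusted p under 0.05 over all genes and an absolute log2 fold change above 0.75. No member of 44 passed, where 0.46% of all genes did (83 genes). At an unadjusted limma p under 0.05, 9 members were higher in Mc4r KO (20.5%, against 12% of all genes) and 3 were lower (6.82%, against 8.83%). The 3 libraries of Mc4r KO lay above the 3 of WT for 11 members (25%, against 14.1% of all genes) and below them for 6 (13.6%, against 12.4%). Among genes with a mean of at least 1 FPKM, which hold 39 members, the backgrounds for the higher side were larger, 17.1% at unadjusted p (members 23.1%) and 19.6% without overlap (members 28.2%).

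The median log2 fold change was 0.09 over the 44 members, with 29 above 0 (65.9%) and 15 below. It was -0.01 over all genes tested, with 48.8% above 0, and 0.02 over genes of at least 1 FPKM, with 52.9% above 0. With only genes of at least 1 FPKM, the median of the 39 members was 0.09, which stood 0.07 above that of all such genes. By library, the median of the members relative to their WT means was -0.07, -0.01 and 0.07 in WT and 0.12, -0.04 and 0.17 in Mc4r KO, so the groups overlapped. This split depended on the scaling. When each library was scaled to its FPKM outside the mitochondrial chromosome, the median of all genes moved to -0.19 and that of the members to -0.10, with 15 members above 0 and 29 below. Relative to the median of all genes, the members stood 0.11 higher with the FPKM as deposited and 0.09 higher after that scaling, but 0.03 lower with the mitochondrial share as a covariate (medians -0.025 and 0.002). Fold changes were small for most carriers: 29 of 44 lay within 0.25 of 0 on the log2 scale and 3 exceeded 0.5, namely Slc25a29, Slc25a4 and the barely detected Slc25a18. With the mitochondrial share as a covariate, 1 member was higher at unadjusted p in place of 9, and 4 were lower in place of 3. The same fit also lowered the numbers over all 18035 genes, to 1040 higher in place of 2169 and 908 lower in place of 1592. The number on the higher side thus fell in both, more steeply among the carriers. On the lower side it rose among the carriers and fell over all genes. The cause was not tested.

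**Figure D2:**
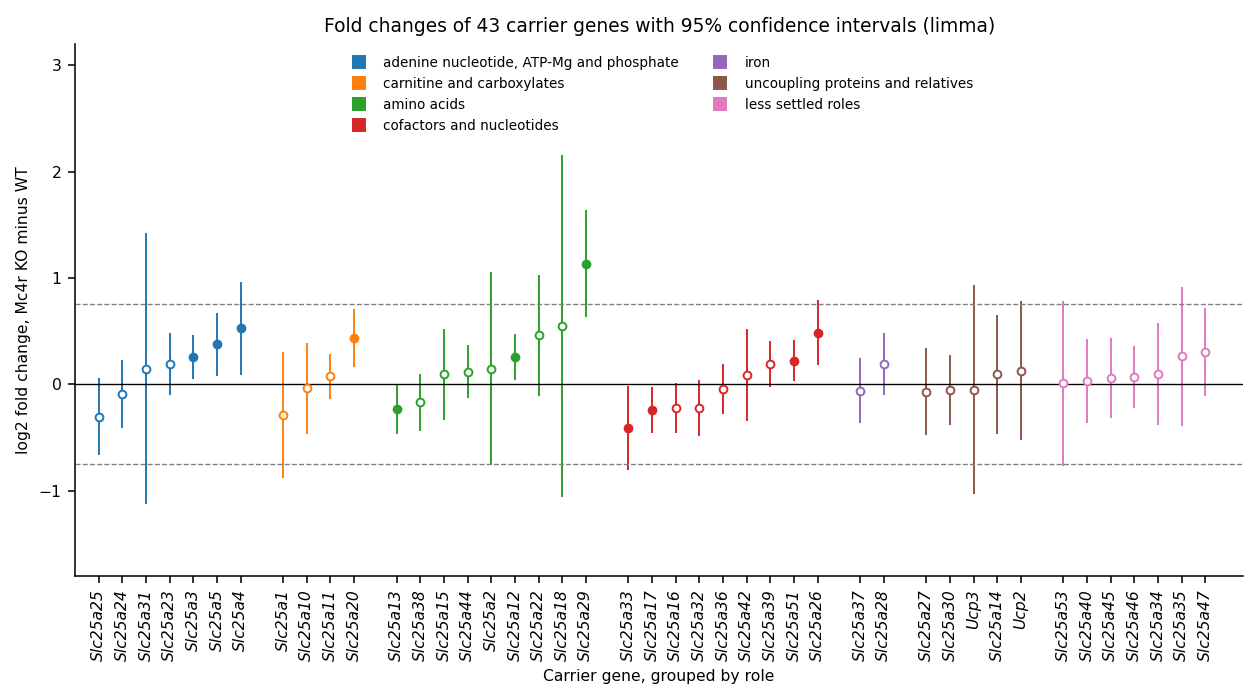
Log2 fold change of Mc4r KO against WT (y axis) with 95% confidence intervals from limma for 43 carrier genes grouped by role (colours); filled points have an unadjusted p under 0.05 and dashed lines mark the fold needed for a call. Slc25a29 has the highest value, 1.13, and 0 of the 43 pass the call.

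Promoters of 4 carriers are shown because the results below turn on them: Slc25a4 and Slc25a29, which have the largest fold changes among carriers above 1 FPKM, and the related pair Slc25a12 and Slc25a13, which lay on opposite sides of 0. Sequences are from RefSeq (GRCm38.p6), run 5′ to 3′ on the strand of the gene and cover 250 bases before to 50 bases after the annotated start; 39 of the 50 members have such an entry, with 49 promoters in all. The windows are chr8:46211013-46211312, chr12:108835827-108836126, chr2:71367706-71368005 and chr6:6217124-6217423, all on the minus strand. Capitals mark matches on either strand to GGGCGG (GC box), CCAAT or CACGTG (E-box).
Slc25a4: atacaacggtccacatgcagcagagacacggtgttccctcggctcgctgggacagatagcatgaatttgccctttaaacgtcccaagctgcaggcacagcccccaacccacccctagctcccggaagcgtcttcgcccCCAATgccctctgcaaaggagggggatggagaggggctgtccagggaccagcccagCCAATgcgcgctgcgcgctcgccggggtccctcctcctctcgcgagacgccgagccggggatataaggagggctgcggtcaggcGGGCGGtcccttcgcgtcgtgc
Slc25a29: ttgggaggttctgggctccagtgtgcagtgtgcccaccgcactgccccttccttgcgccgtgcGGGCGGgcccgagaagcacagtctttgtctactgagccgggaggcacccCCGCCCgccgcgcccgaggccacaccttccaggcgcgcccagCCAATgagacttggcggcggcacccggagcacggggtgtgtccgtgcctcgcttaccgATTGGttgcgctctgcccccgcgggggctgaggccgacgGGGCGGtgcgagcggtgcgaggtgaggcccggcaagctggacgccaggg
Slc25a12: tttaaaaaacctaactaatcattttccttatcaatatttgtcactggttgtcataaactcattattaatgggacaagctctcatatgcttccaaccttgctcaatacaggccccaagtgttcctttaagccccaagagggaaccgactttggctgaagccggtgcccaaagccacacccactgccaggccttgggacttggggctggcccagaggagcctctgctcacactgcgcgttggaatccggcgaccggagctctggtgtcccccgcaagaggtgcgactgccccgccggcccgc
Slc25a13: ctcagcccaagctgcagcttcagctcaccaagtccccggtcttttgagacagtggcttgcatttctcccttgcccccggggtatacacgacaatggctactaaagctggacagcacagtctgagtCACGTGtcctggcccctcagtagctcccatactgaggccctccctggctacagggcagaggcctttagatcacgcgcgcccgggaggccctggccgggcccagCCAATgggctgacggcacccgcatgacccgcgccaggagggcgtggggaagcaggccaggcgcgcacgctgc

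The Slc25a4 window held 1 GC box and 2 CCAAT words, and that of Slc25a29 held 3 GC boxes and 2 CCAAT words. The Slc25a13 window had 1 CCAAT and 1 E-box, and the Slc25a12 window had no match to any word searched. GGGCGG occurred in 39 of the 49 carrier promoters (79.6%) against 35.7% of the 32851 promoters of the table, CCAAT in 22 (44.9%) against 37.4%, CACGTG in 8 (16.3%) against 7.15%, and TATAAA in 2 (4.08%) against 13.6%. The longer word TCAAGGTCA, a site of estrogen-related receptors, occurred in 0 of the 49, against 0.423% of all promoters. Carrier promoters had a median GC content of 59.7% against 52.7% for all, and the words themselves differ in GC content. The words do not overlap each other, were chosen with their matches known, and a match is a description of letters only.

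Slc25a4, the ADP/ATP carrier of heart and muscle (chr8:46206797-46211284, minus strand, mm10), had 1102, 1252 and 1685 FPKM in WT replicates 1, 2 and 3 and 1764, 2068 and 1906 FPKM in the Mc4r KO replicates. All Mc4r KO libraries lay above all WT libraries, and WT replicate 3 was close to the lowest of them. The means were 1346 ± 303 and 1913 ± 152 FPKM (SD, n = 3 each), a fold of 1.42 and a log2 fold change of 0.53 ± 0.19 (SE, limma adjusted p = 0.177). Slc25a4 alone made up 55.1%, 57.2% and 62.0% of the family's summed FPKM in WT and 62.8%, 65.0% and 64.2% in Mc4r KO, again without overlap (exact permutation p = 0.1). Slc25a4 was lowest in WT replicates 1 and 2, the libraries with the highest mitochondrial share. With that share as a covariate the log2 fold change of Slc25a4 was 0.12 (limma adjusted p = 0.888), and without WT replicate 3 it was 0.70 (adjusted p = 0.0362). Because the share separates the groups, the covariate fit cannot tell it apart from genotype. The other 49 carriers together summed to 898, 937 and 1034 FPKM in WT and 1044, 1112 and 1063 FPKM in Mc4r KO. These sums use the FPKM as deposited. As a share of the FPKM outside the mitochondrial chromosome, the other 49 overlapped between groups.

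**Figure D3:**
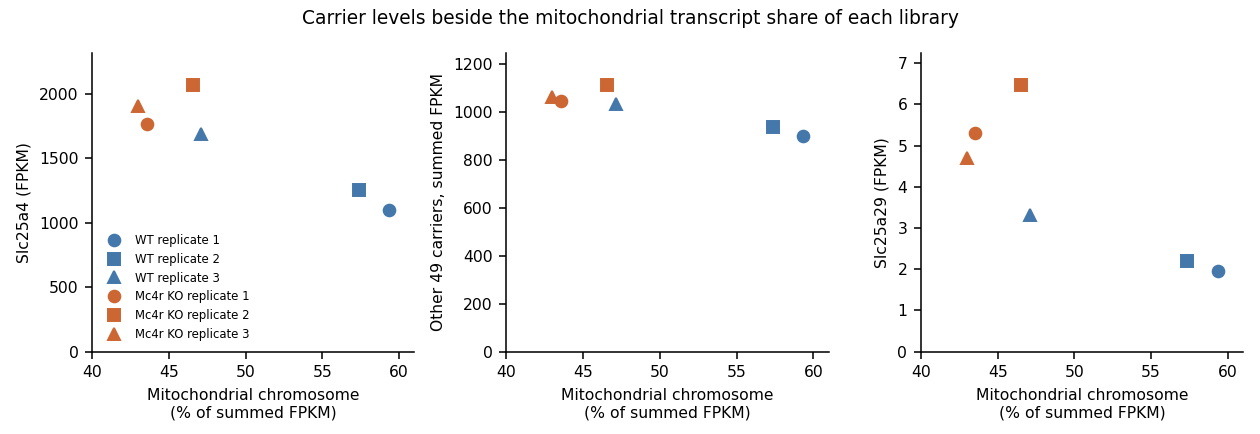
FPKM of Slc25a4, summed FPKM of the other 49 carriers, and FPKM of Slc25a29 (y axes, from 0) against the percentage of FPKM from the mitochondrial chromosome (x axis) in each library. WT replicates 1 and 2 sit at 59.3% and 57.4% with the lowest carrier values, and WT replicate 3, at 47.1%, lies between them and the Mc4r KO libraries in all 3 panels.

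The other adenine nucleotide and phosphate carriers had smaller fold changes. Slc25a5, the ADP/ATP carrier of most other tissues, had 96.8, 98.3 and 112 FPKM in WT and 123, 157 and 121 FPKM in Mc4r KO, without overlap (log2 fold change 0.38 ± 0.13, limma adjusted p = 0.164). Of its 50-base words, 33.8% are shared with 9 other genes, Slc25a5 pseudogenes among them, so that its count is less certain than that of Slc25a4, which shares 0%. Slc25a3, the phosphate carrier that supplies ATP synthesis, had 226, 229 and 231 FPKM in WT and 267, 292 and 261 FPKM in Mc4r KO (fold 1.20, log2 fold change 0.26 ± 0.09, limma adjusted p = 0.166). All WT libraries lay below Mc4r KO, but the log2 fold change was 0.02 after quantile normalization and 0.06 after scaling to FPKM outside the mitochondrial chromosome. Slc25a31, the ADP/ATP carrier of the testis, had 36 reads over the 6 libraries, with 0.333, 0.0982 and 0.0828 FPKM in WT and 0.212, 0.0619 and 0.322 FPKM in Mc4r KO, which overlapped.

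The share of Slc25a4 among the 3 ADP/ATP carriers was 92.8% ± 0.933 in WT and 93.5% ± 0.541 in Mc4r KO, and the groups overlapped (exact permutation p = 0.4). Among the calcium-regulated ATP-Mg/phosphate carriers, Slc25a23 had 7.03, 7.80 and 8.45 FPKM in WT and 8.92, 7.72 and 10.03 FPKM in Mc4r KO, with overlap. Slc25a24 had 3.33, 3.06 and 2.55 FPKM in WT and 3.00, 2.55 and 2.80 FPKM in Mc4r KO, with overlap. Slc25a25 had 1.98, 1.75 and 1.71 FPKM in WT and 1.37, 1.71 and 1.30 FPKM in Mc4r KO, where the highest Mc4r KO library was just under the lowest WT library (log2 fold change -0.30, limma adjusted p = 0.310). Slc25a23 took 61.8% ± 4.76 of this set in WT and 67.5% ± 3.29 in Mc4r KO, which overlapped. Slc25a41, the remaining member, had 0 reads in all 6 libraries. In the whole role group 3 of 7 tested members were higher at unadjusted p and 0 lower (12% and 8.83% of all genes), with a median log2 fold change of 0.19.

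Among the carriers of carnitine and carboxylates, Slc25a20 had the clearest separation. This carnitine/acylcarnitine carrier, which brings fatty acids into the matrix for oxidation, had 32.3, 36.6 and 39.3 FPKM in WT and 43.7, 47.8 and 55.0 FPKM in Mc4r KO. The lowest Mc4r KO library exceeded the highest WT library, and the fold was 1.35 (log2 fold change 0.43 ± 0.12, limma unadjusted p = 0.00703, adjusted p = 0.114). Slc25a11, the 2-oxoglutarate carrier of the malate-aspartate shuttle, had 217, 224 and 238 FPKM in WT and 252, 234 and 228 FPKM in Mc4r KO. Its groups overlapped, and the 95% interval of the log2 fold change ran from -0.14 to 0.28. Slc25a1, the citrate carrier, had a mean of 2.56 FPKM in WT and 2.07 FPKM in Mc4r KO, and Slc25a10, the dicarboxylate carrier, 3.69 and 3.54 FPKM, both with overlap. Slc25a21, the oxodicarboxylate carrier, had 10 reads over all libraries and was not tested. The 4 tested members had a median log2 fold change of 0.02.

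Slc25a29, a carrier of basic amino acids such as arginine and lysine (chr12:108825873-108835883, minus strand, mm10), had the largest fold change of the family. It had 1.96, 2.19 and 3.31 FPKM in WT and 5.32, 6.47 and 4.69 FPKM in Mc4r KO, from 968 reads in all. No library of one group reached the other, and WT replicate 3 was the highest of WT. The means were 2.49 ± 0.724 and 5.49 ± 0.902 FPKM (SD, n = 3 each), a fold of 2.21 and a log2 fold change of 1.13 ± 0.21 (95% interval 0.63 to 1.64). The limma p was 0.00101 before and 0.0663 after adjustment over all genes, so it missed the call. It passed without WT replicate 3 (adjusted p = 0.0205) and in 4 other planned settings, and its adjusted p ran from 0.0193 to 0.473 over the 18 alternatives. With the mitochondrial share as a covariate its log2 fold change was 0.68 (limma adjusted p = 0.473), in a fit where that share and genotype cannot be told apart.

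The gene Slc25a47, a liver carrier on the opposite strand, begins inside the printed Slc25a29 window, with 162 bases between the annotated genes. It had 1.33, 1.10 and 1.42 FPKM in WT and 1.45, 1.46 and 1.94 FPKM in Mc4r KO. These groups did not overlap, by a small margin, and the log2 fold change was 0.31 (limma adjusted p = 0.371).

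The aspartate/glutamate carriers Slc25a12 and Slc25a13 exchange aspartate for glutamate in the malate-aspartate shuttle, and both were well expressed. Slc25a12 had 28.1, 29.3 and 28.4 FPKM in WT and 32.5, 38.2 and 32.3 FPKM in Mc4r KO, without overlap (log2 fold change 0.26 ± 0.09, limma adjusted p = 0.178). Slc25a13 had 43.5, 38.3 and 43.7 FPKM in WT and 34.9, 38.7 and 32.9 FPKM in Mc4r KO, with 1 pair of libraries overlapping (log2 fold change -0.24 ± 0.10, limma adjusted p = 0.225). The ratio of Slc25a12 to Slc25a13 was 0.646, 0.764 and 0.649 in WT and 0.931, 0.989 and 0.980 in Mc4r KO. The groups were separate, and the ratio was 1.41-fold higher in Mc4r KO. The share of Slc25a12 was 40.6% ± 2.32 in WT and 49.1% ± 0.818 in Mc4r KO (SD, n = 3 each), a difference of 8.51 percentage points (exact permutation p = 0.1, two-sided, 1 of 10 carrier sets compared). Leaving out each library in turn gave differences from 7.81 to 9.85 points. A ratio within a library does not depend on the scaling between libraries, and it shows unequal change of the pair, not which gene changed. Its level does depend on the gene lengths used for FPKM. By reads, the mean share of Slc25a12 was 56.9% in WT and 65.1% in Mc4r KO, also without overlap.

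**Figure D4:**
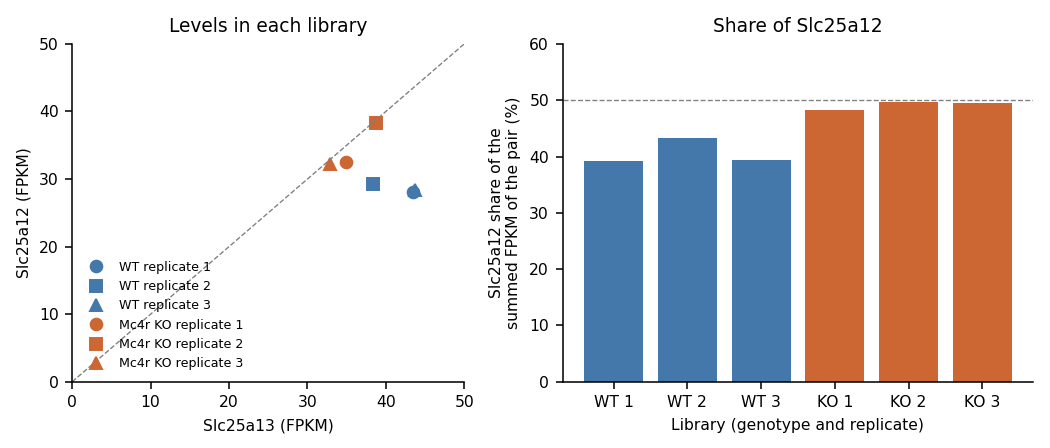
Left, FPKM of Slc25a12 (y axis) against Slc25a13 (x axis) in each library, with a dashed line of equality; right, Slc25a12 as a percentage of the summed FPKM of the pair (bars from 0). In FPKM, which depends on gene length, the Mc4r KO libraries lie from 48.2% to 49.7% and the WT libraries from 39.2% to 43.3%.

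Other amino acid carriers varied within groups. Slc25a22, a glutamate carrier, had 5.20, 7.74 and 9.60 FPKM in WT and 7.90, 11.0 and 11.7 FPKM in Mc4r KO, with overlap (log2 fold change 0.46, 95% interval -0.11 to 1.03). Its relative Slc25a18 had 28 reads in all, with 0.111, 0.182 and 0 FPKM in WT and 0.135, 0.0344 and 0.489 FPKM in Mc4r KO, and Slc25a22 took 98.5% and 98.0% of the pair in the group means. Slc25a38, a glycine carrier needed for heme synthesis in red cell precursors, had 7.10, 8.77 and 6.99 FPKM in WT and 6.97, 6.69 and 6.53 FPKM in Mc4r KO, without overlap by a narrow margin (limma adjusted p = 0.439). Slc25a44, the branched-chain amino acid carrier, had means of 5.83 and 6.31 FPKM with overlap. Slc25a15, the ornithine carrier, had 1.94, 2.31 and 2.93 FPKM in WT and 2.22, 2.94 and 2.48 FPKM in Mc4r KO, and its relative Slc25a2 had 18 reads in all, with 0.104, 0.153 and 0.129 FPKM in WT and 0.188, 0.0962 and 0.182 FPKM in Mc4r KO, with overlap in both. Of the 9 amino acid carriers, 2 were higher and 1 lower at unadjusted p, beside 12% and 8.83% of all genes, with a median log2 fold change of 0.15.

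Carriers of cofactors and nucleotides lay on both sides. Slc25a26, which imports S-adenosylmethionine, had 3.72, 4.91 and 4.84 FPKM in WT and 5.94, 6.60 and 6.30 FPKM in Mc4r KO, without overlap (fold 1.40, log2 fold change 0.49 ± 0.13, limma adjusted p = 0.115). Slc25a51, the NAD carrier, had 14.3, 13.1 and 14.7 FPKM in WT and 16.1, 16.9 and 16.02 FPKM in Mc4r KO, also without overlap (log2 fold change 0.22 ± 0.08, limma adjusted p = 0.193).

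On the lower side, Slc25a33, a pyrimidine nucleotide carrier, had 9.88, 8.74 and 12.0 FPKM in WT and 8.50, 8.41 and 6.14 FPKM in Mc4r KO. The groups did not overlap, although WT replicate 2 and Mc4r KO replicate 1 were close (fold 0.752, log2 fold change -0.41 ± 0.17, limma adjusted p = 0.228), and 14.9% of its exon bases lie opposite another gene, Gm13068. Its relative Slc25a36 had 5.52, 4.86 and 4.88 FPKM in WT and 4.86, 4.73 and 5.20 FPKM in Mc4r KO, with overlap, and the share of Slc25a33 in the pair was 66.5% ± 3.97 in WT and 60.6% ± 5.59 in Mc4r KO, without overlap (exact permutation p = 0.1). The lowest WT share was 64.2% and the highest Mc4r KO share 64.0%, and without Mc4r KO replicate 3 the difference went from -5.92 to -2.69 percentage points. By reads, which do not correct for gene length, the mean share of Slc25a33 was 28.3% in WT and 23.4% in Mc4r KO. Slc25a17, a peroxisomal carrier of coenzyme A and related cofactors, had 5.46, 5.38 and 5.01 FPKM in WT and 4.37, 4.37 and 4.60 FPKM in Mc4r KO, without overlap (fold 0.841, limma adjusted p = 0.200). Slc25a16 and Slc25a32, the folate carrier, were also without overlap on the lower side, with log2 fold changes of -0.22 each (limma adjusted p = 0.258 and 0.303). Slc25a42, the coenzyme A carrier, had means of 13.8 and 14.7 FPKM with overlap.

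**Figure D5:**
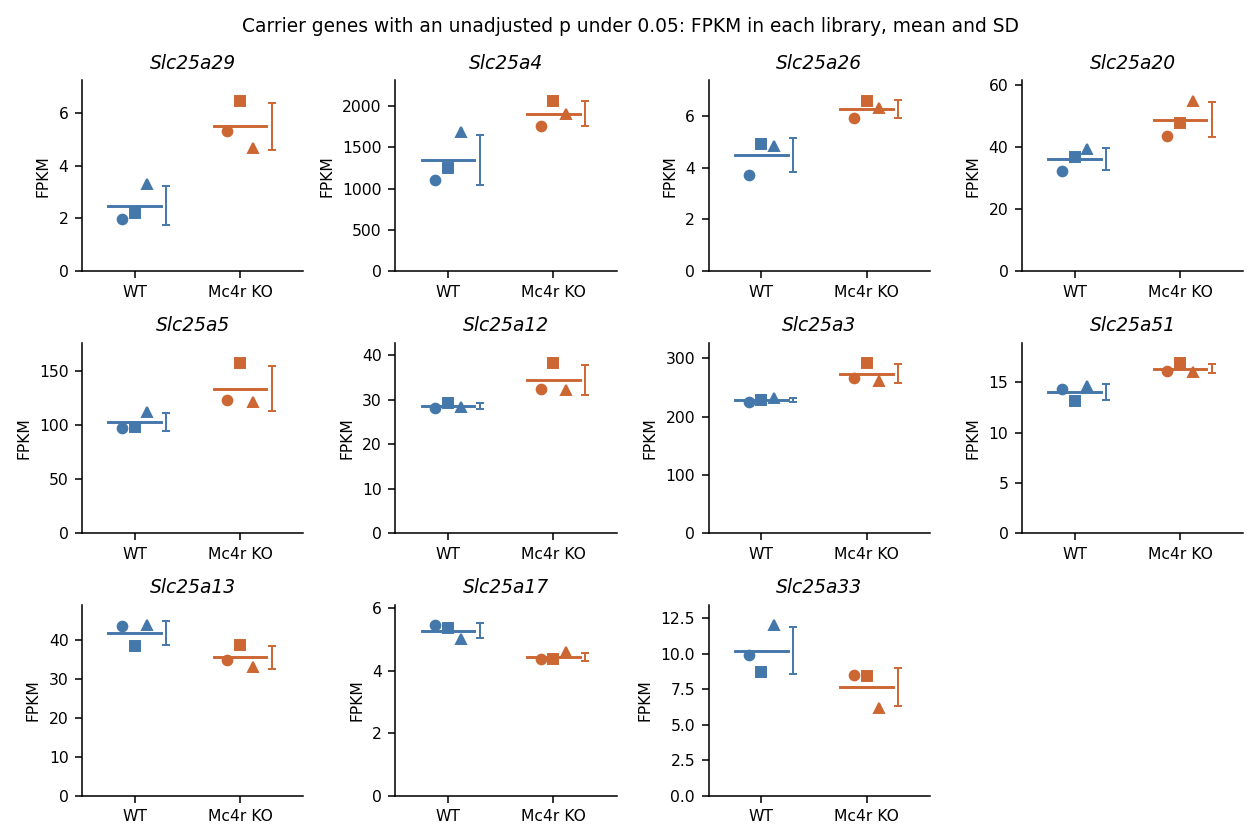
FPKM (y axis, from 0) of 11 carriers with an unadjusted limma p under 0.05 in each WT (blue) and Mc4r KO (orange) library, with the mean (line) and SD (bar). The groups are separate for 10 of the 11, and those of Slc25a13 overlap.

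Slc25a39, the mitochondrial glutathione carrier, had 33.1, 35.0 and 37.3 FPKM in WT and 38.3, 43.7 and 38.3 FPKM in Mc4r KO, without overlap (log2 fold change 0.19, limma adjusted p = 0.287). Its relative Slc25a40 had 1.34, 1.15 and 0.959 FPKM in WT and 1.09, 1.19 and 1.22 FPKM in Mc4r KO, with overlap, and Slc25a39 held 96.8% and 97.2% of the pair. The iron carriers, which feed heme and iron-sulfur cluster synthesis, did not separate the groups. Slc25a37 (mitoferrin 1) had 3.95, 4.12 and 5.05 FPKM in WT and 4.55, 4.12 and 3.85 FPKM in Mc4r KO, and Slc25a28 (mitoferrin 2) had 9.13, 12.1 and 11.4 FPKM in WT and 12.5, 11.4 and 13.1 FPKM in Mc4r KO. Slc25a37, Slc25a38 and Slc25a39 are also made in red cell precursors, and the 8 erythrocyte markers summed to 4500, 862 and 6348 FPKM in WT and 1653, 665 and 623 FPKM in Mc4r KO; all 8 had log2 fold changes below 0, and the part of red cell RNA in these carriers was not tested.

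Ucp3 and Ucp2 varied widely within groups. Ucp3, the muscle form, had 11.0, 22.2 and 31.9 FPKM in WT and 13.3, 18.3 and 28.7 FPKM in Mc4r KO. Both groups covered nearly the same range, with coefficients of variation of 48.3% and 39.0% against medians of 13.1% and 9.94% over the 39 members above 1 FPKM, and the 95% interval of the log2 fold change ran from -1.03 to 0.93. Ucp2, the form of many tissues and its neighbour on chromosome 7, had 9.01, 8.14 and 16.8 FPKM in WT and 14.0, 9.72 and 11.9 FPKM in Mc4r KO, with overlap. Ucp1, the uncoupling protein of brown fat, had 0 reads in all 6 libraries, which allows up to 0.108 to 0.130 FPKM by a floor of 3 reads per library, and covers counting error only. The relative Slc25a30 had 3.13, 3.06 and 2.65 FPKM in WT and 3.31, 2.59 and 2.62 FPKM in Mc4r KO, with overlap. Slc25a27 had 1.41, 1.57 and 1.30 FPKM in WT and 1.21, 1.22 and 1.66 FPKM in Mc4r KO, and Slc25a14 had 0.630, 0.972 and 0.596 FPKM in WT and 0.927, 0.668 and 0.738 FPKM in Mc4r KO, both with overlap. Of the 10 sets of related carriers, the shares within a library separated the groups clearly for Slc25a12/Slc25a13 and narrowly for Slc25a33/Slc25a36, and overlapped for the other 8.

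The remaining members have less settled roles. Slc25a34 was the fifth most abundant carrier, with 53.9, 60.9 and 90.0 FPKM in WT and 65.2, 65.2 and 85.3 FPKM in Mc4r KO, and its groups overlapped. Slc25a46, which acts on the outer membrane, had means of 16.4 and 17.1 FPKM. Slc25a35, Slc25a45 and Slc25a53 had mean levels over all libraries from 0.234 to 1.86 FPKM with overlap, and 31.3% of the exon bases of Slc25a35 lie opposite Rangrf. Slc25a43, Slc25a48 and Slc25a54 had 12, 2 and 1 reads in all and were not tested. Of the 7 tested members of this group, which also counts Slc25a40 and Slc25a47 described above, 0 passed an unadjusted p of 0.05.

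Other parts of mitochondrial transport were set beside the carriers. Of 27 other transporters of the mitochondrial membranes, 0 were called, 5 were higher and 4 lower at unadjusted p, and the median log2 fold change was 0.11. For this list and the next ones, the shares over all genes are 12% higher and 8.83% lower, or 17.1% and 10.8% among genes of at least 1 FPKM. Mpc2, a subunit of the pyruvate carrier, had 27.1, 27.9 and 33.8 FPKM in WT and 40.8, 43.9 and 40.5 FPKM in Mc4r KO (limma adjusted p = 0.0787), whereas its partner Mpc1 had a log2 fold change of -0.19 (adjusted p = 0.481). Smdt1, the EMRE subunit of the calcium uniporter, had 36.97, 43.1 and 49.2 FPKM in WT and 58.2, 67.5 and 66.4 FPKM in Mc4r KO (limma adjusted p = 0.0821). Other genes of the uniporter differed: the pore gene Mcu had a log2 fold change of 0.03 (limma adjusted p = 0.951), and the regulators Micu2 and Micu3 had -0.31 and -0.45 (adjusted p = 0.107 and 0.210). Of 12 tested genes of the machinery that imports carriers, 4 were higher and 0 lower at unadjusted p, with a median of 0.18. Among them Tomm40, the channel of the outer membrane, had a log2 fold change of 0.45 (limma adjusted p = 0.0983) and Timm22, the channel that inserts carriers, 0.54 (adjusted p = 0.124). Of 12 PPAR target genes, a list that includes fatty acid genes, 2 were higher and 1 lower at unadjusted p, with a median of 0.43. All 3 lists are descriptions with no test of their own.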

How the data were processed

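RNA from mouse heart was sequenced in 3 WT and 3 Mc4r KO mice. Per the submitters' processing notes, reads were aligned with HISAT2 (2.0.5) to mm10; the paper adds counting of reads on genes with featureCounts. The authors deposited FPKM per gene and library, with gene lengths and positions. Dividing FPKM times length by the worth of 1 read gave whole numbers for 100% of values (within 0.02 of a read), which were used as reads. Whether counting used strand is not given in the sources used here.

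Limma 3.58.1 (R 4.3.3, data.table in version 1.17.8), with an empirical Bayes trend and no covariate, was run on log2(FPKM + 0.1); the median-of-ratios factors were 1. A fold change on this scale understates that of low genes. Single values were compared by exact permutation of 3 against 3. The replicate numbers were treated as names only. Code was tested on simulated data. Of the table's identifiers, 99.8% were found in GENCODE M21, whose transcripts gave shared 50-base words and overlapping exons. Figures used Python 3.11.15 and matplotlib 3.10.9.

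Values in each library are given for the 10 highest members, members with an unadjusted p under 0.05, and paralogue sets; others by means or counts. Slc25a38, Slc25a47, Actc1, Tnni3, Pln, Cidea, Cfd, Mpc1, Mpc2, Smdt1, Mcu, Micu2, Micu3, Tomm40 and Timm22 were singled out after their values were seen. The members, lists and motifs were chosen with earlier results of these data known. Alternatives were pseudocounts of 1 and 0.01, other filters, quantile and nuclear-sum scaling, voom, robust fits, array weights, the mitochondrial share as a covariate, the replicate block, protein-coding genes only and each library left out. The result for 1 member is not reported here, although the counts include it.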

Additional observations from a re-analysis of the deposited data

How the results depend on the processing

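Slc25a29 was the 1 member called with a mean FPKM of at least 1, limma voom on recovered reads, array weights and protein-coding genes only. Members higher at unadjusted p numbered 5 with quantile normalization, 1 when scaled to the FPKM sum outside mitochondrial transcripts and 1 with the mitochondrial share as a covariate, against 9. Over all 18035 genes these numbers were 1794, 892 and 1040, against 2169. Members lower numbered 7 with the nuclear-sum scaling, against 3 (all genes 3266, against 1592). Members without overlap on the higher side numbered 5 with that scaling, against 11 (all genes 1157, against 2538). The median log2 fold change was -0.10 with it and -0.025 with the covariate, against 0.09; the split with the covariate was 21 above 0 and 23 below. The cause of these moves was not tested.

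Leaving out each library in turn gave 0 to 1 members called (1 without WT replicate 3), 5 to 12 higher at unadjusted p (5 without WT replicate 2), 1 to 2 lower (1 without WT replicate 1, Mc4r KO replicate 1 or Mc4r KO replicate 3), and 11 to 17 without overlap on the higher side (17 without WT replicate 3). Over all 18035 genes, the same fits gave 0 to 632 called, 1408 to 2777 higher and 1059 to 2240 lower at unadjusted p. Genes without overlap on the higher side numbered 3092 to 4030. The median of the members ran from 0.05 to 0.15.

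The replicate numbers gave no sign of pairing: deviations of same-numbered libraries correlated at -0.14, 0.01 and -0.08. Those of differently numbered libraries ran from -0.03 to 0.11. Deviations from a mean of 3 libraries are tied to each other, so these values cannot settle whether libraries were paired. With the replicate block, 0 members were lower at unadjusted p, against 3 (all genes 1412, against 1592), and 0 were called. The 12 members with an unadjusted p under 0.05 kept their sign in all 18 alternatives, but some came close to 0: Slc25a3 reached 0.02 (quantile normalization, adjusted p = 0.913), and Slc25a51 and Slc25a12 reached 0.03 and 0.06 (nuclear-sum scaling).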
